A study of Mus musculus with 6 samples.

Results

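The genes described here encode the transforming growth factor beta (TGF beta), activin and bone morphogenetic protein (BMP) signalling pathway, measured in mouse N2A cells with and without a short hairpin RNA (shRNA) against Pou3f3. The members were a named list of 41 genes, and each was read from the array row that the platform annotation assigned to its symbol alone. All 41 were found, with 1 row each, among 19938 gene symbols with such a row. They comprised 12 ligands and latency proteins, 11 receptors and receptor-associated proteins, 8 SMADs and 10 repressors or antagonists. The list was not chosen by measured values, but it was drawn up with earlier results of these arrays known.

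N2A is a mouse neuroblastoma line that can be driven towards a neuronal fate, and Pou3f3 is a POU-domain transcription factor of the developing nervous system. The control group was N2A cells transfected with a non-targeting vector (n = 3 arrays), and the Pou3f3 knockdown group was N2A cells transfected with a Pou3f3 shRNA (n = 3 arrays). In both groups 1.5 µg of construct was delivered by transient transfection. The sample titles give no time for the RNA, and 2.5 days after transfection is only the middle of the range in the study's methods. The study measured Pou3f3 after this knockdown by quantitative PCR at the upper end of that range. The share of cells that took up the construct was not analysed here. Both groups came from the same line, and the comparison asked which genes changed when Pou3f3 was depleted. The knockdown group was not a set of independent cell lines. The labels do not say which Pou3f3 hairpin was used.

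In this pathway the ligands are secreted dimers, and TGF beta is often held in the matrix by latent TGF beta binding proteins until it is released. A ligand brings together type II and type I serine/threonine kinase receptors, and the type I receptor phosphorylates a receptor SMAD. TGF beta and activin act mainly through SMAD2 and SMAD3, BMPs mainly through SMAD1, SMAD5 and SMAD9, and both branches share SMAD4. Extracellular antagonists such as noggin and follistatin trap ligands, inhibitory SMADs act on receptors, and nuclear co-repressors such as TGIF and SKI proteins act on SMAD complexes at genes. In the nervous system BMP signalling patterns the dorsal neural tube and opposes neural induction.

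The targeted gene was examined first. Pou3f3 measured 8.37, 8.30 and 8.47 on the log2 scale in the control arrays and 8.20, 8.09 and 8.35 in the knockdown arrays. The knockdown mean was 1.12-fold lower, a log2 difference of -0.16 ± 0.08 (SE), but the groups overlapped and limma gave an adjusted p of 0.303. The exact two-sided permutation test over arrays gave p = 0.2, where 0.1 is the smallest value 3 arrays against 3 can give. In the same-numbered pairs the differences were -0.17, -0.21 and -0.12, and with a replicate block the adjusted p was 0.0880, but the difference was smaller than the 1.3-fold needed for a call. The log2 difference was -0.10 without knockdown array 2. The study itself reported a larger reduction of Pou3f3, measured by quantitative PCR of reverse-transcribed RNA and not on the arrays. Of 10 neuroblastoma and sympathoadrenal markers, 9 had a row, with control means from 9.91 to 13.80. Dbh (dopamine beta-hydroxylase) alone of these was called, lower, by a log2 difference of -1.17. At an unadjusted p under 0.05, 4 of the 9 were lower and none higher, where 19.9% of all rows had such a p. The same 4 did not overlap, where 26% of all rows did not. Besides Dbh these were Th (tyrosine hydroxylase) and the chromogranins Chga and Chgb, with log2 differences of -0.38, -0.35 and -0.38. Th was called lower with a replicate block (adjusted p = 0.0420). The 3 markers above 0, Hand2, Gap43 and Mycn (0.04, 0.08 and 0.11), had overlapping groups. The part of these differences in the pathway results was not tested. Fibroblast, endothelial, macrophage, Schwann cell and astrocyte markers (21 with a row) had control means from 4.96 to 8.88, and none was called, with an unadjusted p under 0.05 for 3 fibroblast, 1 endothelial and 1 Schwann cell marker. The groups did not overlap for 4 of 6 fibroblast markers and for 1 Schwann cell marker. In bulk RNA, fewer cells of a kind and less RNA per cell cannot be told apart.

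A gene was called where limma gave a Benjamini-Hochberg adjusted p under 0.1 over all 21789 rows with 1 symbol and the groups differed at least 1.3-fold (0.38 on the log2 scale). By this rule 3 of the 41 pathway genes changed (7.32%), where 1.99% of all rows did. Tgfb3, a TGF beta ligand, fell 1.70-fold. Tgif1, a nuclear co-repressor of SMAD complexes, and Acvr1b, the type I activin receptor ALK4, rose 1.41-fold and 1.36-fold. The 2 rises among 41 genes stood against 1.3% of all rows called higher, and the 1 fall against 0.684% called lower. At an unadjusted p under 0.05 the count was 7 genes, 4 higher and 3 lower, where 19.9% of all rows had such a p.

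Across all 41 genes the median log2 difference, knockdown minus control, was -0.04, with 19 above 0 and 22 below, and the median over all symbols was -0.03. The median therefore lay close to that of the whole array. Control and knockdown arrays did not overlap for 18 genes (43.9%), 10 higher and 8 lower, where 26% of all rows did not overlap, 10.9% higher and 15.1% lower. Same-numbered control and knockdown arrays differed in the same direction in every pair for 30 genes, 14 higher and 16 lower (73.2%, against 53.0% of all symbols).

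**Figure D1:**
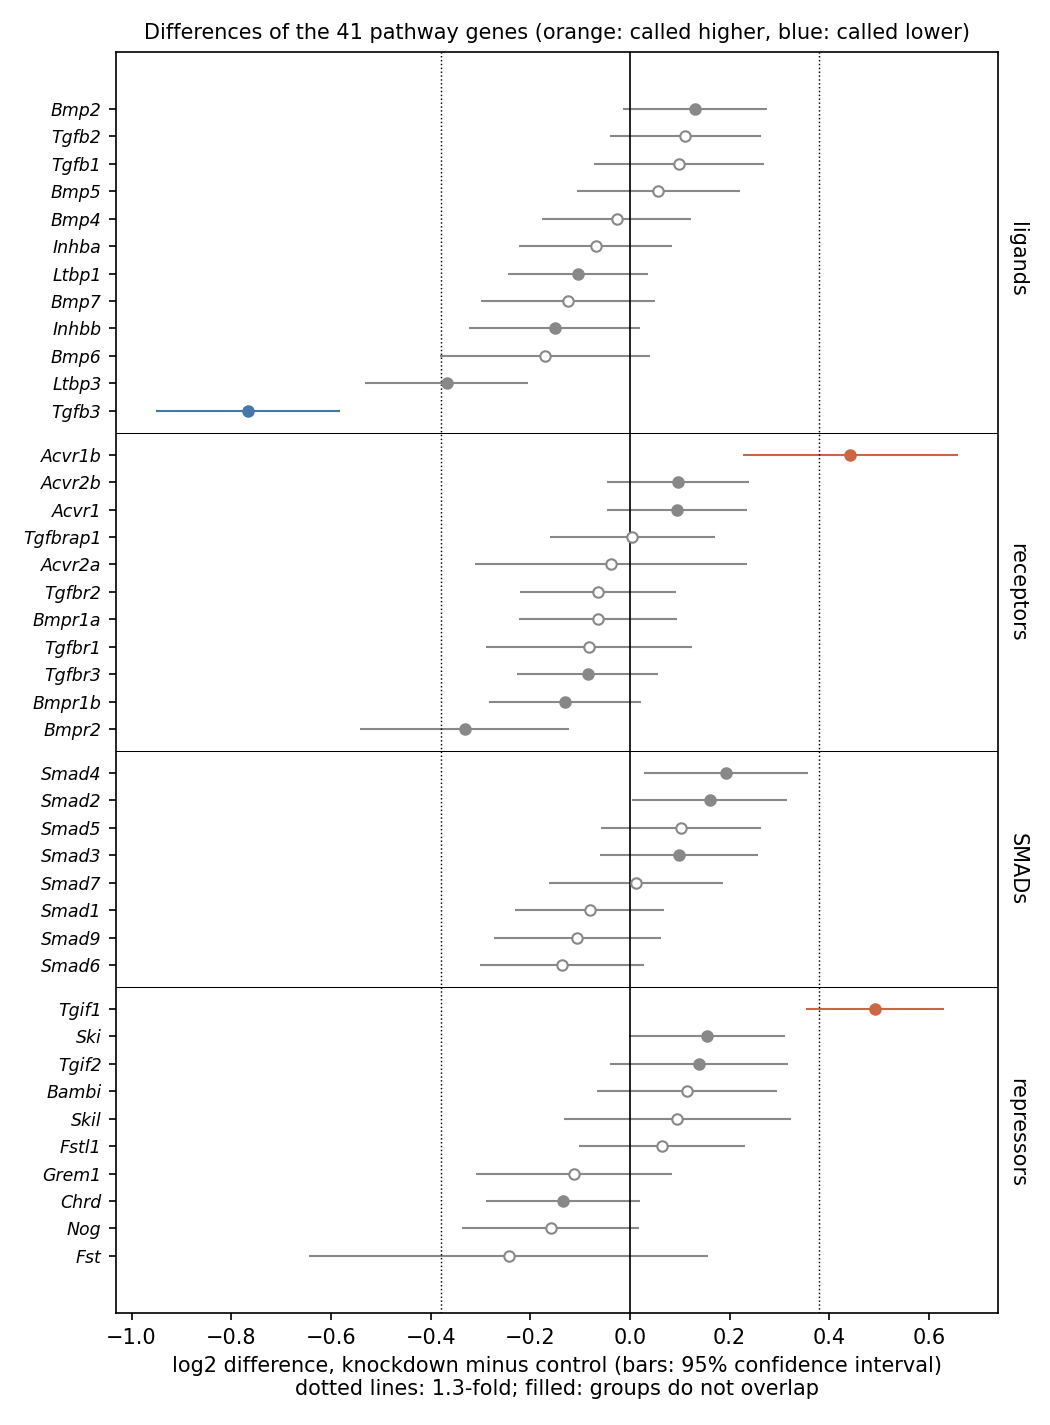
Log2 difference of each of the 41 pathway genes, knockdown minus control, by role and ordered by size, with the 95% confidence interval of the limma fit as a bar. Filled points are genes whose control and knockdown arrays did not overlap, and the dotted lines mark a 1.3-fold difference. Tgfb3 lies farthest to the left at -0.77, and Tgif1 (0.49) and Acvr1b (0.44) lie beyond the right dotted line.

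The ligands were led by the fall of Tgfb3. Tgfb3 measured 10.03, 10.23 and 10.07 in the control arrays and 9.26, 9.46 and 9.30 in the knockdown arrays. Every knockdown array lay far below every control array. The means were 10.11 ± 0.11 and 9.34 ± 0.10 (SD, n = 3), a log2 difference of -0.77 ± 0.08 (SE, 95% interval -0.95 to -0.58). Tgfb3 fell by 41.2%, with an adjusted p of 0.00676 by limma. The differences within the same-numbered pairs were -0.77, -0.77 and -0.76.

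The other TGF beta ligands were not called. Tgfb1 had a log2 difference of 0.10 ± 0.08 (SE) with an adjusted p of 0.483, and Tgfb2 had 0.11 ± 0.07 with an adjusted p of 0.377. The groups overlapped for both. Taken within each array, the log2 value of Tgfb3 minus that of Tgfb1 shifted by -0.86 between the groups, and that of Tgfb3 minus Tgfb2 by -0.88. Each of these shifts separated the groups with an exact permutation p of 0.1, the smallest possible, and an adjusted p of 0.125 over the 5 family contrasts computed, which were chosen after the values were seen.

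Latent TGF beta binding proteins tether the latent ligand complex to the matrix. Ltbp3 measured 10.11, 10.26 and 10.22 in the control arrays and 9.79, 9.78 and 9.92 in the knockdown arrays. The groups did not overlap. The log2 difference was -0.37 ± 0.07 (SE) with an adjusted p of 0.0446, and at 1.29-fold it lay just under the fold cut-off, so it was not called. Ltbp1 measured 7.61, 7.71 and 7.69 in the control arrays and 7.57, 7.57 and 7.57 in the knockdown arrays. All knockdown arrays lay below all control arrays, but the log2 difference was only -0.11 ± 0.06 (SE) with an adjusted p of 0.369. Within arrays, the log2 value of Ltbp3 minus that of Ltbp1 shifted by -0.26 (exact permutation p = 0.1, adjusted p = 0.125).

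The activin and BMP ligands differed little. Inhbb, which encodes an activin and inhibin beta subunit, measured 8.00, 8.01 and 8.01 in the control arrays and 7.78, 7.79 and 8.00 in the knockdown arrays. The groups did not overlap, but the third knockdown array all but reached the lowest control, and the adjusted p was 0.300. Bmp2, a BMP ligand, had the largest positive difference among the ligands. It measured 6.08, 6.12 and 6.14 in the control arrays and 6.29, 6.18 and 6.27 in the knockdown arrays, a log2 difference of 0.13 ± 0.06 (SE) without overlap and with an adjusted p of 0.293. Bmp2 and Bmp4 were the 2 members with a mean under 7, in the lower part of the array's range of 3.16 to 14.89. Control means of the markers of other cell types ran from 4.96 to 8.88. The BMP ligands, Inhba, Inhbb, Ltbp1, Tgfbr2, Tgfbr3, Bmpr1b, Nog, Chrd and Grem1 lay in that range. How much of such signal was background was not tested. For Inhba, Bmp4, Bmp5, Bmp6 and Bmp7 the groups overlapped, with log2 differences from -0.17 (Bmp6) to 0.06 (Bmp5). Among the 12 ligands and latency proteins 4 lay above 0 and 8 below, with a median of -0.09.

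**Figure D2:**
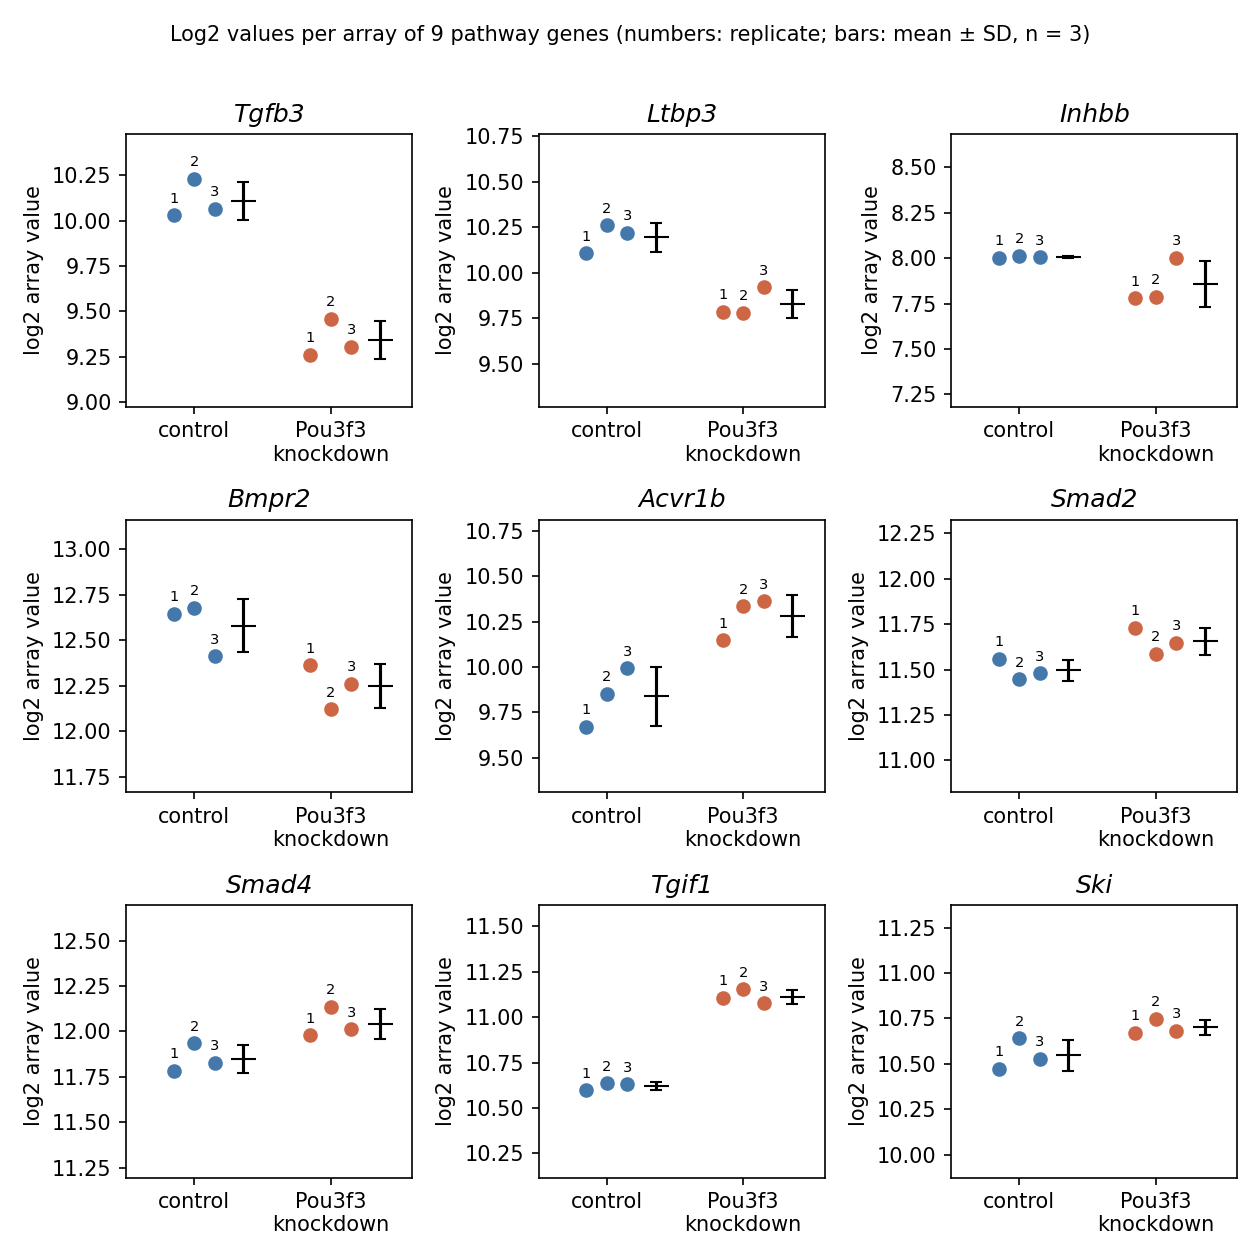
Log2 array values of 9 pathway genes in the 3 control (blue) and 3 Pou3f3 knockdown arrays (orange), numbered by replicate, with the mean and SD beside them. Every panel spans the same log2 range. The groups separate widely for Tgfb3 (10.11 against 9.34) and Tgif1 (10.62 against 11.11), and narrowly for Inhbb.

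Of the 11 receptors, 4 lay above 0 and 7 below. Of 4 receptors named for activin 3 had a positive difference, and all 3 named for TGF beta and all 3 named for BMP had a negative one. These groups follow gene names, and Acvr1 (0.09), counted here with activin, also carries BMP signals. Acvr1b alone of the 11 receptors was called. Acvr1b measured 9.67, 9.85 and 9.99 in the control arrays and 10.15, 10.33 and 10.36 in the knockdown arrays. The groups did not overlap, although the spread within each group was wide. The means were 9.84 ± 0.16 and 10.28 ± 0.12 (SD, n = 3), a log2 difference of 0.44 ± 0.10 (SE, 95% interval 0.23 to 0.66), 35.9% higher with an adjusted p of 0.0591 by limma. Acvr1b was no longer called without control array 1 (0.36, under the fold cut-off) or without control array 2, knockdown array 2 or knockdown array 3 (adjusted p = 0.188, 0.202 and 0.130).

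Acvr1 (ALK2), a type I receptor named for activin that also carries BMP signals, measured 9.93, 9.91 and 9.86 in the control arrays and 10.03, 9.97 and 9.97 in the knockdown arrays. All knockdown arrays were higher, by a mean log2 difference of 0.09 ± 0.06 (SE) with an adjusted p of 0.417. The within-array difference between Acvr1b and Acvr1 shifted by 0.35, with overlap and an exact permutation p of 0.2. Acvr2b, a type II activin receptor, measured 9.05, 9.13 and 9.04 in the control arrays and 9.13, 9.18 and 9.20 in the knockdown arrays. Its groups were separated very narrowly, and the adjusted p was 0.417. Acvr2a, the other type II activin receptor, had a difference of -0.04 ± 0.12 (SE) with overlap.

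Bmpr2, the type II BMP receptor, had the largest negative difference among the receptors. Bmpr2 measured 12.65, 12.68 and 12.41 in the control arrays and 12.36, 12.12 and 12.26 in the knockdown arrays. All knockdown arrays were lower than all control arrays. The log2 difference of -0.33 ± 0.09 (SE) had an adjusted p of 0.113 and missed both cut-offs. Bmpr1b, a type I BMP receptor, measured 7.63, 7.70 and 7.54 in the control arrays and 7.46, 7.53 and 7.49 in the knockdown arrays. The groups lay just apart, with a difference of -0.13 ± 0.07 (SE) and an adjusted p of 0.311. Tgfbr3 (betaglycan), a co-receptor that presents TGF beta, measured 8.76, 8.68 and 8.69 in the control arrays and 8.60, 8.67 and 8.61 in the knockdown arrays. Here too the groups were apart, by a mean of -0.08 ± 0.06 (SE) with an adjusted p of 0.468. Tgfbr1, Tgfbr2 and Bmpr1a had differences from -0.08 to -0.06 with overlap, and Tgfbrap1, a receptor-associated protein, had 0.00.

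None of the 8 SMADs was called, and 2 had an unadjusted p under 0.05. Smad4, the shared partner of both branches, measured 11.78, 11.93 and 11.83 in the control arrays and 11.98, 12.14 and 12.01 in the knockdown arrays. The groups did not overlap, and the log2 difference was 0.19 ± 0.07 (SE) with an adjusted p of 0.197. Smad2, a receptor SMAD of TGF beta and activin signalling, measured 11.56, 11.45 and 11.48 in the control arrays and 11.73, 11.59 and 11.65 in the knockdown arrays. Its difference of 0.16 ± 0.07 (SE), also without overlap, had an adjusted p of 0.241.

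Smad3, the partner of Smad2 in the same branch, measured 9.43, 9.60 and 9.60 in the control arrays and 9.65, 9.62 and 9.65 in the knockdown arrays. The groups lay just apart, with an adjusted p of 0.455. The inhibitory Smad6 had the largest negative difference of the SMADs. It measured 9.12, 9.26 and 9.31 in the control arrays and 9.04, 9.10 and 9.14 in the knockdown arrays, a difference of -0.14 ± 0.07 (SE) with overlap and an adjusted p of 0.323. The other inhibitory SMAD, Smad7, had 0.01 ± 0.08 (SE). Of the BMP receptor SMADs, Smad5 had 0.10, Smad1 -0.08 and Smad9 -0.11, all with overlap.

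Of the 10 repressors, 6 lay above 0 and 4 below. All 4 nuclear repressors lay above 0, in each of the 3 same-numbered pairs, with a median of 0.15, and of the 5 extracellular antagonists 4 lay below 0. Tgif1 alone of these was called. Tgif1 measured 10.60, 10.64 and 10.63 in the control arrays and 11.11, 11.15 and 11.08 in the knockdown arrays. The arrays of each group were tightly grouped and far apart from the other group. The means were 10.62 ± 0.02 and 11.11 ± 0.04 (SD, n = 3), a log2 difference of 0.49 ± 0.06 (SE, 95% interval 0.35 to 0.63), 40.5% higher with an adjusted p of 0.0133 by limma.

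Tgif2, the paralogue of Tgif1, measured 8.80, 9.06 and 9.00 in the control arrays and 9.09, 9.07 and 9.12 in the knockdown arrays. The groups were separated very narrowly, with an adjusted p of 0.353. Within arrays, the log2 value of Tgif1 minus that of Tgif2 shifted by 0.35 without overlap (exact permutation p = 0.1, adjusted p = 0.125). Ski, a co-repressor that binds SMAD complexes, measured 10.47, 10.64 and 10.53 in the control arrays and 10.67, 10.75 and 10.68 in the knockdown arrays. All knockdown arrays were higher, with a difference of 0.15 ± 0.07 (SE) and an adjusted p of 0.256. The related Skil had 0.09 ± 0.10 (SE) with overlap.

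Among the extracellular antagonists, Fst (follistatin), which traps activins, had the largest negative difference and the widest spread. Fst measured 10.81, 11.35 and 10.78 in the control arrays and 10.46, 11.06 and 10.70 in the knockdown arrays. The second array was the highest of its group in both, and the groups overlapped, with a difference of -0.24 ± 0.18 (SE) and an adjusted p of 0.461. All 3 same-numbered pairs were lower (-0.36, -0.29 and -0.08), with an adjusted p of 0.0448 under a replicate block but a difference short of the fold cut-off. The difference was -0.06 without control array 2, -0.10 without knockdown array 1 and -0.40 without knockdown array 2. Chrd (chordin), a BMP antagonist, measured 8.07, 8.14 and 8.12 in the control arrays and 7.94, 7.91 and 8.07 in the knockdown arrays. The groups were barely apart, with an adjusted p of 0.303. The BMP antagonists Nog and Grem1 had -0.16 and -0.11, the follistatin-like Fstl1 had 0.06, and the decoy receptor Bambi had 0.11, all with overlap.

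The size and sign of a difference also varied with the level of a row over the whole array. When all symbols were divided into 10 equal classes by their mean over the 6 arrays, the median difference was -0.09 in the class from 7.23 to 7.80 and 0.08 in the class from 9.48 to 10.22. The lower of these classes held 5 pathway genes and the higher held 9. The negative differences of about 0.1 seen for Ltbp1, Bmp7, Bmpr1b and Grem1 lay in the lower class, near its median. Likewise, the positive differences of Smad3 (0.10), Acvr1 (0.09) and Bambi (0.11) lay in the higher class, near its median. Of the other members in the higher class, Acvr1b lay well above the median, and Tgfb3, Ltbp3, Acvr2a, Smad1 and Smad9 lay below 0. Among the repressors, Nog and Chrd lay in the class from 7.80 to 8.56, where the median was -0.08. Tgif1, Ski, Skil and Fst lay in the class from 10.22 to 10.93, where the median was 0.07. Of these, Tgif1 (0.49) lay well above that median and Fst (-0.24) well below it. The part of level in the small differences was not tested. Cyclic loess, which aligns arrays along the level, turned the sign of Bmp4, Inhba, Tgfbrap1 and Smad7 and left 6 ligands above 0 and 6 below. All 4 nuclear repressors stayed above 0 and the 3 receptors named for TGF beta and 3 named for BMP below 0 in both other scalings. Under cyclic loess, however, the nuclear repressor nearest 0 lay at 0.04 and the TGF beta receptor nearest 0 at -0.0045.

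**Figure D3:**
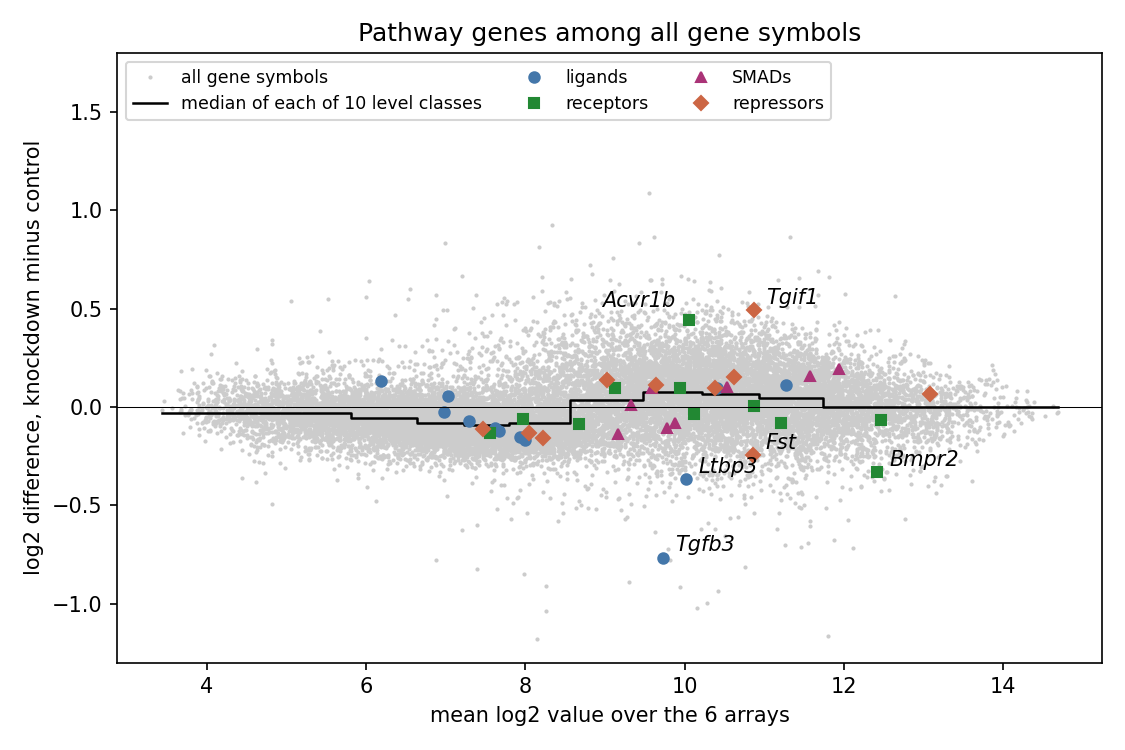
Log2 difference, knockdown minus control, against the mean log2 value over the 6 arrays for all gene symbols (grey) and the 41 pathway genes by role, with the median of each of the 10 classes of symbols by level as a line. The line runs from -0.09 to 0.08, and Tgfb3, Ltbp3, Bmpr2, Acvr1b and Tgif1 lie well away from it.

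To set sequence beside the 2 genes that rose, their promoter windows are shown, from 250 bases before to 50 bases after the start of transcription, taken from RefSeq on GRCm38.p6. The Acvr1b window is chr15:101173822-101174121 on the plus strand and has a GC content of 79.7%. The Tgif1 window is the most upstream of the 5 starts listed, chr17:70853483-70853782 on the minus strand, and has a GC content of 58.0%. Both are written 5′ to 3′ along the gene, and capitals mark a GGCGCC motif, to which SMAD proteins can bind.
Acvr1b: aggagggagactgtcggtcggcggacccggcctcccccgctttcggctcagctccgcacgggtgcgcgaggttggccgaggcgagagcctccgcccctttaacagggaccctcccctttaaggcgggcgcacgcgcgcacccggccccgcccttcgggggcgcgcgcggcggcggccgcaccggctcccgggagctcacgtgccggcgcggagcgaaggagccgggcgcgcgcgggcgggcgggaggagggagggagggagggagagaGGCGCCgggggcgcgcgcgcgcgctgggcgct
Tgif1: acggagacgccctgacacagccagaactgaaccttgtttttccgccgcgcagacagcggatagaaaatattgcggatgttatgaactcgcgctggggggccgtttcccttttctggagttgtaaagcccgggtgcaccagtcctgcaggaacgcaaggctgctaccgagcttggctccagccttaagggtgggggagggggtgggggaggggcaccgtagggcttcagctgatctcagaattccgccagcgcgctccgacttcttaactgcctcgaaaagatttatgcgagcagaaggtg

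Of the 41 genes, 30 matched a RefSeq promoter entry, with 41 windows. The 11 without an entry were Tgfb3, Bmp2, Bmp7, Tgfbr3, Smad2, Smad4, Smad7, Nog, Fst, Bambi and Skil. Motifs were searched on both strands. The octamer ATGCAAAT, which POU-domain factors bind, stood in none of these 41 windows and in 1.735% of all 32851 windows. GGCGCC stood in 11 member windows of 10 genes and in 11.866% of all windows. In Acvr1b it began 19 bases after the start. The SMAD palindrome GTCTAGAC stood in 1 member window, that of Smad6, and in 0.213% of all windows. A match is a description of letters and not a measured binding site.

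A further list of 93 genes of the same pathway covered other ligands, coreceptors, extracellular and intracellular regulators and target genes, and 86 had a row with 1 symbol. None was called higher by limma and 1 was called lower (1.16%, where 1.99% of all rows were called and 0.684% were called lower). The differences of 25 lay above 0 and of 61 below (29.1% above, against 42.2% of all symbols), with a median of -0.07. At an unadjusted p under 0.05, 6 were higher and 14 lower, where 19.9% of all rows had such a p. Control and knockdown arrays did not overlap for 20 genes (23.3%), 8 higher and 12 lower, where 26% of all rows did not overlap. Every same-numbered pair differed in the same direction for 48.8%, against 53% of all symbols. By both measures the wider list thus lay slightly under the whole array, unlike the 41 members. The gene that fell was Inhbe, another activin and inhibin beta subunit. It measured 8.00, 8.28 and 8.10 in the control arrays and 7.47, 7.77 and 7.76 in the knockdown arrays. The groups did not overlap, and the log2 difference was -0.46 ± 0.10 (SE) with an adjusted p of 0.0619. Of these 86 genes 0 were called lower without control array 2 or 3 or without any of the 3 knockdown arrays, so the call of Inhbe did not hold there.

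Id2, an inhibitor of basic helix-loop-helix factors and a BMP target, had the largest difference of the 17 target genes. Id2 measured 11.17, 11.92 and 11.26 in the control arrays and 10.85, 11.19 and 10.88 in the knockdown arrays. The second array was the highest of each group, and the groups overlapped, with a log2 difference of -0.48 ± 0.18 (SE) and an adjusted p of 0.200. In the fit with a replicate block, which called 2.5% of all rows, Id2 was called lower (adjusted p = 0.00746). None of the other target genes was called in either fit.

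In the remaining classes no gene was called. The largest differences were -0.24 for the type I receptor Acvrl1 (adjusted p = 0.173), -0.24 for the chordin-like antagonist Chrdl2 (adjusted p = 0.0910, under the fold cut-off) and -0.27 for the co-activator Ep300 (adjusted p = 0.137). Of the 22 intracellular regulators 16 lay above 0 and 6 below, and of the 20 other ligands 1 lay above 0 and 19 below. These 2 classes differed in level, with median control values of 11.01 and 7.55, and their median differences were 0.06 and -0.10. Over all symbols the median difference was 0.04 in the level class from 10.93 to 11.74 and -0.09 in that from 7.23 to 7.80. The part of level in these directions was not tested.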

How the data were processed

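Total RNA of 3 control and 3 Pou3f3 knockdown N2A samples was hybridised to Affymetrix Mouse Gene 1.0 ST arrays. The deposited table holds log2 values, which the authors made by robust multi-array averaging (RMA) and analysed with limma; versions are not given in the sources used here. Array medians ran from 7.90 to 8.01. The number of arrays limits the precision. The limma p-values set each group difference against the spread between these samples, with each row's variance drawn towards that of the other rows.

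Of 35556 rows, 21789 had 1 gene symbol in the platform annotation, 1621 had several and 12146 were not listed; the last 2 kinds were left out. Groups came from the sample labels. Differences were fitted with limma 3.58.1 (lmFit, eBayes) in R 4.3.3, two-sided, without a block or variance filter, with Benjamini-Hochberg adjustment over the 21789 rows. The scripts were tested on simulated data. Arrays with the same replicate number were set side by side as pairs, although the labels do not say that they were prepared together. Deviations from the group means correlated between same-numbered arrays (r = 0.638, 0.307 and 0.289), and from -0.478 to 0.254 between others. Deviations within a group sum to 0, which ties these correlations to each other, so they do not settle the pairing.

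Values in every array are given for members called, members without overlap, and the largest rise and fall in each role. The members and lists were chosen with earlier results of these data known. Alternatives were all rows, a variance filter, a minimum mean of 7, a replicate block, 2 scalings, the mean of a symbol's rows, and leaving out each array.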

Additional observations from a re-analysis of the deposited data

How the results depend on the processing

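Tgfb3 and Tgif1 were called under all 13 alternatives run (log2 differences from -0.83 to -0.71 and from 0.44 to 0.51), and Acvr1b under 8. With all rows of the table tested, Tgfb3 and Tgif1 lay only just under the cut-off of 0.1 (limma adjusted p = 0.0989 and 0.0998). Over 20 named members, 240 of 248 values stayed on the same side of the test, for most members by not being called in either fit. The changes were those of Acvr1b (5) and Ltbp3 (3). None of the 20 reversed, but they were picked for a call, for groups without overlap or for the largest differences, which makes reversals unlikely. Outside these 20, 4 members reversed under cyclic loess. With all rows of the table tested, 1 member was called higher and no other pathway gene lower, and Acvr1b had an adjusted p of 0.197. Cyclic loess called 2 members lower, Ltbp3 being the second. The variance filter, which tested 15 of the 41 members, gave a median difference of -0.11 and called 2 other pathway genes lower. The replicate block called 2 other pathway genes lower, Inhbe and Id2, and changed no other call among the members and the other pathway genes. Leaving out 1 array gave 1 to 2 members higher, 1 to 2 lower (Ltbp3 was added without control array 1 or knockdown array 3), a median from -0.07 to -0.02 and 0 to 1 other pathway genes lower. Over all rows, 433 were called (284 higher, 149 lower), against 28 with every row of the table tested (10 higher, 18 lower), 425 with cyclic loess (232 higher, 193 lower) and 147 to 611 without 1 array, the lowest without knockdown array 2 (67 higher, 80 lower). The causes were not tested.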
